A study of Mus musculus with 12 samples.

Results

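Monocyte fate transcription factors are described here in blood monocytes of TRIM33 and WT mice: Spi1, Cebpa, Cebpb, Cebpd, Cebpe, Irf8, Klf4, Klf2, Gfi1 and Maf. They were chosen as a named list of lineage regulators, and all 10 were found as gene-level features, among 23279 genes on the arrays. Expression was measured on 12 single-colour arrays, 6 labelled TRIM33 and 6 labelled WT, from mice aged 6 to 8 weeks. The design gives the sorted cells as positive for CD11b and CD115 with high Ly6C, the inflammatory type of blood monocyte. The strain label of all 12 arrays is C57BL/6 LyzCre, so Cre from the lysozyme promoter, active in myeloid cells, is named for TRIM33 and WT alike. The labels leave it unsaid whether WT mice have the transgene. Titles name mixes for 2 arrays of each genotype and single codes for the other 4, without saying that an array is an animal. The p-values thus speak of array-to-array spread, some of which may be technical, and the number of arrays limits the precision.

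Blood monocytes arise in the bone marrow, where a small set of transcription factors sets the course of a myeloid progenitor. PU.1, the product of Spi1, opens the myeloid programme, and the C/EBP proteins, which bind DNA as pairs through a basic leucine zipper, drive granulocyte and monocyte genes. IRF8 and KLF4 favour the monocyte over the neutrophil, while GFI1, a repressor, and C/EBP epsilon favour the neutrophil. C/EBP beta supports the later turn of Ly6C-high into Ly6C-low patrolling monocytes, KLF2 is a factor of quiescent leukocytes, and MAF belongs to macrophages.

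A grouping other than genotype split the 12 arrays into 2 sets, each of 3 TRIM33 and 3 WT arrays. The sets were found by clustering over all features without genotype, and leaving the factors out of the clustering gave the same sets. For Xist, the RNA of the inactive X chromosome, log2 values ran over 9.01 to 10.2 in the set named after it, against 3.36 to 3.64 in the other, called the Y set. Arrays correlated at 0.986 to 0.992 inside a set, while pairs across sets reached 0.955 to 0.967. Monocyte markers were bright in both: Ly6c2, the gene of the Ly6C antigen, averaged 12.3 in the Xist set and 12.4 in the Y set, and Ccr2, the receptor that lets monocytes leave the marrow, 11.5 and 11.8. The T cell gene Cd3e averaged 3.28 in the Xist set and 4.05 in the Y set, below the array medians of 4.16 to 4.25, while Trac, a T cell receptor gene, averaged 3.60 in the Xist set and 5.68 in the Y set. Trim33 fell to 6.13 ± 0.0653 in TRIM33 arrays, against 6.92 ± 0.0794 in WT arrays (SD, n = 6 each), with no overlap (log2 difference -0.79 with SE 0.0671; adjusted p = 0.000637 in limma). The labels do not place its probes relative to the deletion.

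No difference between genotypes in the 10 factors exceeded the spread between arrays by the test used. Over all genes 0.0215% passed at an adjusted p under 0.05 in limma (5 of 23279, Benjamini-Hochberg), and 0 of the 10 factors did. An unadjusted p under 0.05 was found for 3.07% of all genes and for 0 factors. Adding the set as a block left each factor's difference as it was and narrowed its error, and then 0.0387% of all genes passed and again 0 factors, with 5.28% of all genes and 0 factors at an unadjusted p under 0.05. Within the Y set alone 0.0344% of all genes and 0 factors passed (4.57% and 0 factors unadjusted), and within the Xist set alone 0.0129% and 0 factors (4.99% unadjusted, and 1 factor, Cebpe). Between TRIM33 and WT arrays 0.198% of all genes did not overlap, and 0 of the factors were among them. The median difference over the factors was -0.12 on the log2 scale, beside -0.01 over all genes, and 9 of 10 lay below 0 where 55.0% of all genes did. This lean was not particular to the factors. Below 0 lay 30 of 38 other myeloid fate regulators (median -0.12) and 13 of 14 genes of a handling stress list (median -0.20). Of 15 cell cycle genes 13 lay above 0 (median 0.08). Of the factors 6 lay below 0 in both sets, a share that was 29.1% over all genes, Cebpe lay above 0 in both, and Cebpa, Cebpd and Gfi1 turned sign between the sets. Values below are log2 expression values, and differences are TRIM33 minus WT unless the sets are named.

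**Figure D1:**
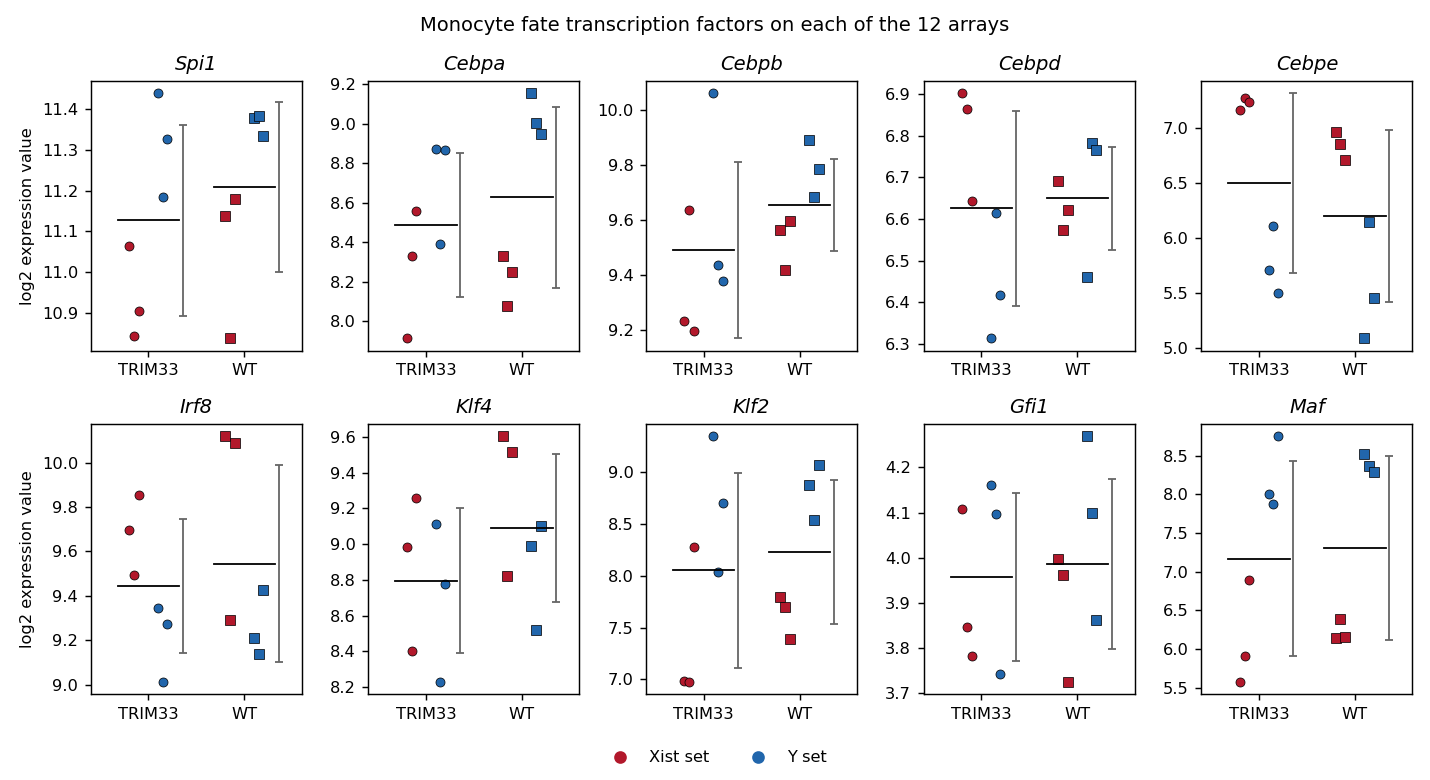
Log2 expression values (vertical axis, a scale of its own for each gene) of the 10 factors on 6 TRIM33 arrays (circles) and 6 WT arrays (squares), red for the Xist set and blue for the Y set, with the genotype mean as a line and its SD as a bar. Maf, Cebpe and Spi1 part the colours without overlap, and in 0 of the 10 panels do the genotypes part.

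The first pair opens the myeloid programme. Spi1 read 11.1, 10.8 and 10.9 in the TRIM33 arrays of the Xist set, against 11.1, 10.8 and 11.2 in its WT arrays. Its Y set values were 11.4, 11.2 and 11.3 in TRIM33 arrays, against 11.4, 11.4 and 11.3 in WT arrays. The genotypes overlapped in both sets. Every array of the Xist set lay below every array of the Y set, though the nearest arrays were close, WT replicate 3 at 11.180 and TRIM33 replicate 2 at 11.185. The genotype difference was -0.08 (SE 0.126, and 0.0857 with the set as block), with an exact two-sided permutation p = 0.528 over all assignments and 0.270 within the sets.

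Cebpa, whose product C/EBP alpha is needed to make granulocyte and monocyte progenitors, read 7.91, 8.33 and 8.56 in the TRIM33 arrays of the Xist set, against 8.33, 8.07 and 8.25 in its WT arrays. For the Y set the values were 8.87, 8.39 and 8.87 in TRIM33 arrays, against 9.16, 9.004 and 8.95 in WT arrays. All 3 TRIM33 arrays of the Y set thus lay below its 3 WT arrays, while in the Xist set the genotypes overlapped. In the Y set 5.43% of all genes lay lower in TRIM33 arrays without overlap. That share counts the lower direction only, and the share of all genes in either direction was not counted. In either direction 3 against 3 arrays part in 0.1 of all assignments, and of the factors in the Y set 1 of 10 parted, Cebpa. By limma its difference there was -0.33 (SE 0.158, p = 0.0712 before and 0.997 after adjustment over all genes; an exact permutation test of 3 against 3 cannot go below 0.1), and TRIM33 replicate 2 was the lowest array. The interaction of genotype and set was 0.38 (SE 0.247, limma adjusted p = 0.996, 95% interval -0.16 to 0.91), so a difference between the sets was not shown. Over all arrays the difference was -0.14 (SE 0.218), and -0.25 to -0.024 with 1 array left out.

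Of the other C/EBP factors, Cebpe was the single factor higher in TRIM33 arrays. It encodes the factor that drives neutrophil secondary granule genes, and it read 7.16, 7.27 and 7.24 in the TRIM33 arrays of the Xist set, against 6.97, 6.86 and 6.71 in its WT arrays. Y set arrays gave 5.71, 6.11 and 5.51 in TRIM33 arrays, against 5.09, 6.15 and 5.46 in WT arrays. TRIM33 lay above WT without overlap in the Xist set, as for 4.41% of all genes and 1 of 10 factors, and the genotypes overlapped in the Y set. That share, too, counts 1 direction only, the higher, while 1 of 10 factors, Cebpe, parted in the Xist set in either direction. By limma the difference was 0.38 in the Xist set (SE 0.128, p = 0.0146 before and 0.939 after adjustment, with the same limit on an exact test) and 0.21 in the Y set (SE 0.271). Over all arrays it was 0.30, with a 95% interval of -0.59 to 1.18 in the fit of genotype alone and -0.03 to 0.62 with the set as block. With 1 array left out it ran from 0.073 to 0.50 without the block and from 0.20 to 0.44 with it.

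Neutrophil markers are given beside Cebpe. Of the 12, 5 lay higher and 1 lower in the Xist set without overlap, where 7.45% of all genes lay higher and 6.59% lower. Between genotypes 0 passed in limma. Before adjustment 0 of the 12 had a p under 0.05 in the fit of genotype alone, and 1, S100a9, in the fit with the set as block. The mean of the 12 measured of 12 listed was 6.76 to 7.14 in the TRIM33 arrays of the Xist set and 6.56 to 7.09 in its WT arrays, and 5.505 to 6.73 in the TRIM33 arrays of the Y set and 5.67 to 5.69 in its WT arrays, so the genotypes overlapped in both sets. Among these, Ly6g, which marks mature neutrophils, read 3.24 to 3.82 in the Xist set, below the array medians of 4.16 to 4.25. Their part in the Cebpe values was not tested.

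Cebpb, an inflammatory and patrolling monocyte factor, ranged over 9.20 to 10.1 in TRIM33 arrays (median 9.41) and over 9.42 to 9.89 in WT arrays (median 9.64). TRIM33 replicate 1 was the highest of all arrays, and the other 5 TRIM33 arrays lay below the WT median. The difference was -0.17 (SE 0.141, and 0.121 with the block; exact permutation p = 0.294 over all assignments and 0.230 within the sets), with 5 of 6 TRIM33 arrays below the WT mean. Cebpd, a factor of acute inflammation, ranged over 6.31 to 6.90 in TRIM33 arrays (median 6.63) and over 6.46 to 6.78 in WT arrays (median 6.66). Its difference was 0.17 in the Xist set (SE 0.130) and -0.22 in the Y set (SE 0.140), opposite signs that the interaction did not separate (0.40, SE 0.185, unadjusted p = 0.0510 and adjusted p = 0.996 in limma). Over all genes 0.00430% passed that interaction test and 0 of the factors did, with 4.21% of all genes and 0 factors at an unadjusted p under 0.05.

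Irf8 and Klf4, the pair that favours monocytes, were spread widely inside the Xist set. Irf8 read 9.70, 9.49 and 9.85 in the TRIM33 arrays of that set, against 10.1, 9.29 and 10.1 in its WT arrays. Its Y set values were 9.34, 9.01 and 9.27 in TRIM33 arrays, against 9.21, 9.14 and 9.43 in WT arrays. WT replicates 1 and 3 were the highest arrays of all, and the genotypes overlapped in both sets. The difference was -0.10 (SE 0.200, and 0.136 with the block; exact permutation p = 0.649 over all assignments and 0.515 within the sets).

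Klf4 had, with Cebpe, the largest absolute difference of the factors. It read 8.99, 8.40 and 9.26 in the TRIM33 arrays of the Xist set, against 9.60, 8.82 and 9.52 in its WT arrays. For the Y set the values were 9.11, 8.23 and 8.77 in TRIM33 arrays, against 8.99, 8.52 and 9.10 in WT arrays. The genotypes overlapped in both sets. The difference was -0.30 (SE 0.215, and 0.191 with the block; exact permutation p = 0.234 over all assignments and 0.215 within the sets), and 3.75% of all genes had a larger absolute difference. It was -0.43 in the Xist set (SE 0.254) and -0.16 in the Y set (SE 0.242), and the block gave a 95% interval of -0.71 to 0.11.

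Klf2, the quiescence factor, read 6.98, 6.98 and 8.28 in the TRIM33 arrays of the Xist set, against 7.80, 7.69 and 7.39 in its WT arrays. Y set arrays gave 9.35, 8.03 and 8.71 in TRIM33 arrays, against 8.88, 8.54 and 9.07 in WT arrays. TRIM33 arrays were both the highest and the lowest of each set, so the genotypes overlapped. The difference was -0.17 (SE 0.424, and 0.236 with the block; exact permutation p = 0.721 over all assignments and 0.565 within the sets).

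Maf, the macrophage factor, read 5.58, 5.91 and 6.90 in the TRIM33 arrays of the Xist set, against 6.14, 6.39 and 6.16 in its WT arrays. Its Y set values were 8.01, 7.88 and 8.75 in TRIM33 arrays, against 8.52, 8.37 and 8.29 in WT arrays. TRIM33 arrays again held both ends of each set. The difference was -0.14 with an SE of 0.624, which fell to 0.195 with the set as block, and the 95% interval was -1.49 to 1.21 without the block and -0.56 to 0.28 with it.

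Gfi1, the repressor of the monocyte course, was dim. It read 3.74 to 4.16 in TRIM33 arrays (median 3.97) and 3.73 to 4.27 in WT arrays (median 3.98), while the median over all features was 4.16 to 4.25 on every array, and 54.4% of all genes had a higher mean. Its difference was -0.03 (SE 0.110). Differences between dim features come out compressed, so a change of Gfi1 could be hidden at this signal.

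**Figure D2:**
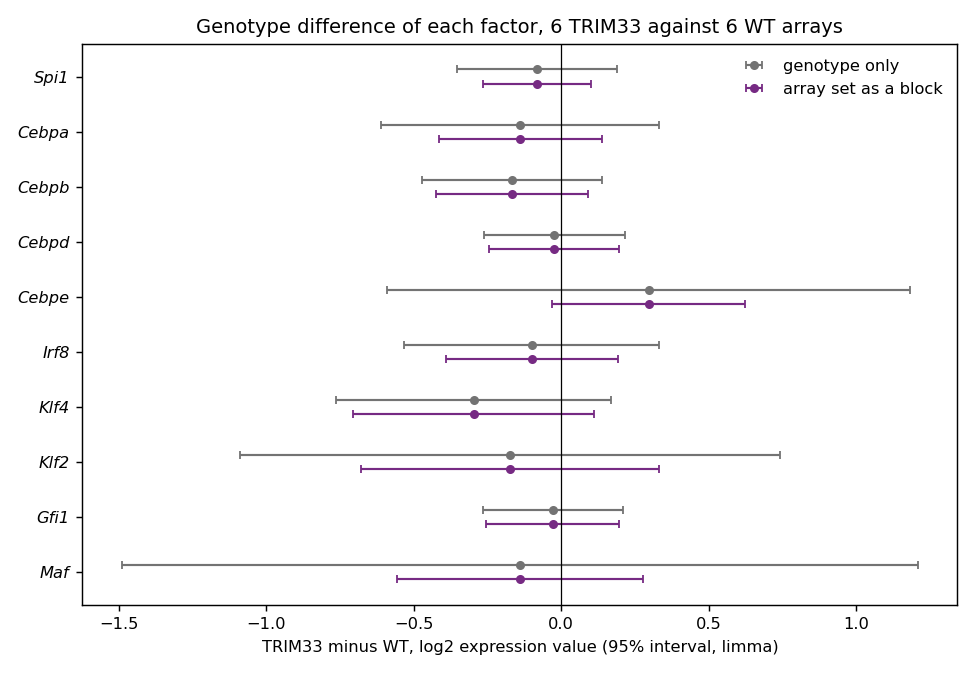
Difference of TRIM33 minus WT (horizontal axis, log2 expression value) for each of the 10 factors with its 95% interval from limma, in grey from the fit with genotype alone and in purple with the set as block. All 20 intervals include 0, and the block shortens that of Maf most, to -0.56 to 0.28.

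The spread of most factors lay between the array sets rather than between the genotypes. This was set out as a description without a test, because the sets were found from the same arrays. For Maf 89.9% of the variance over the 12 arrays lay between the sets and 0.393% between the genotypes, for Cebpe 83.6% and 3.95%, and for Spi1 70.2% and 3.93%. For Cebpa the share between the sets was 66.9%, for Klf2 66.7% and for Irf8 55.9%, while Cebpb, Cebpd, Gfi1 and Klf4 lay between 14.9% and 28.5%. Klf4 had nearly as much between the genotypes, 13.7% beside 14.9% between the sets, and Cebpb had 11.3% beside 28.5%. For every other factor the share between the genotypes was at most 3.95%. The median over all genes was 14.8% between the sets and 3.43% between the genotypes.

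Maf was lowest in the Xist set relative to the Y set, at 6.18 ± 0.447 in the Xist set and 8.30 ± 0.322 in the Y set (SD, n = 6 each), a difference of -2.12 on the log2 scale or 4.36-fold, and 1.28% of all genes differed by more. Klf2 averaged 7.52 ± 0.506 in the Xist set and 8.76 ± 0.454 in the Y set, a difference of -1.24, although TRIM33 replicate 6 at 8.28 overlapped the Y set. Cebpe ran the other way, at 7.03 ± 0.227 in the Xist set and 5.67 ± 0.409 in the Y set, a difference of 1.36 or 2.57-fold. Cebpa differed by -0.63, Irf8 by 0.52, Spi1 by -0.35, Klf4 by 0.31, Cebpb by -0.26, Cebpd by 0.16 and Gfi1 by -0.13. The sets did not overlap for 3 of the 10 factors (Spi1, Maf and Cebpe), beside 14.0% of all genes.

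**Figure D3:**
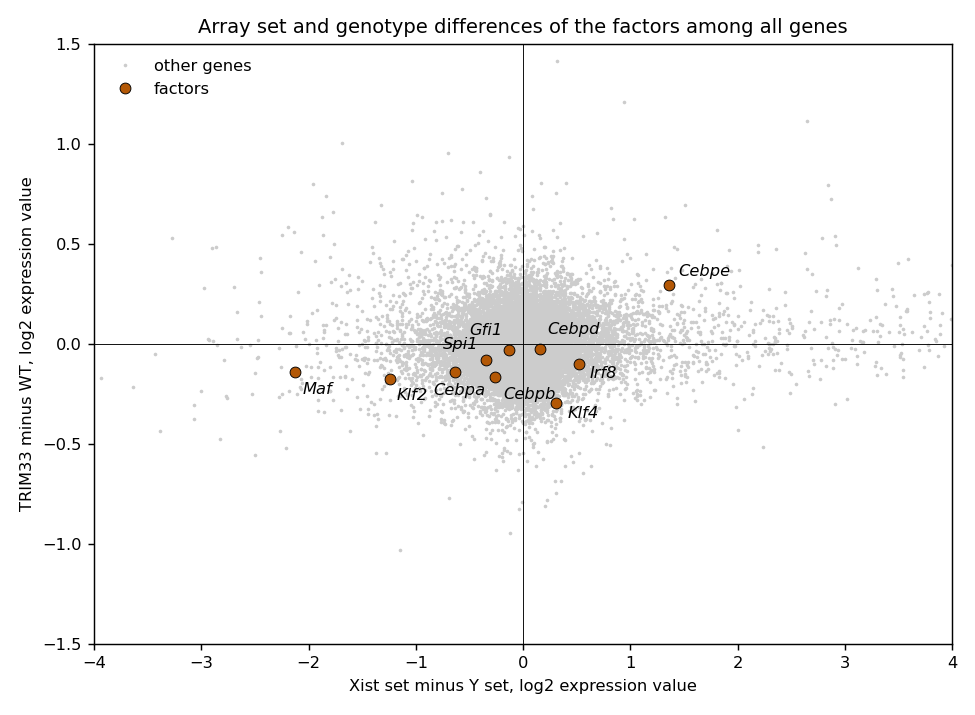
Difference of the Xist set minus the Y set (horizontal axis) against TRIM33 minus WT (vertical axis), both in log2 expression values, for the 10 factors (orange) and the other genes (grey); 73 genes lie outside the axes. The factors spread from -2.12 for Maf to 1.36 for Cebpe along the horizontal axis and from -0.30 for Klf4 to 0.30 for Cebpe along the vertical one.

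Marker and stress lists were read on the same arrays, as list means, and are set beside these values. The cell cycle list (15 of 16 genes measured) read 9.35 to 9.43 in the Xist set, against 4.64 to 5.65 in the Y set, and progenitor markers (8 of 8) 8.25 to 8.54 in the Xist set, against 4.92 to 5.52 in the Y set. Of the progenitor markers 6 lay higher without overlap and 1 lower, beside 7.45% and 6.59% of all genes. The lower one was Flt3, at a mean of 5.31 in the Xist set and 6.79 in the Y set. Kit was dim in both, at 3.87 in the Xist set and 3.50 in the Y set. Erythroid markers (3 of 6) lay lower in the Xist set, at 3.16 to 3.78, against 7.52 to 8.61 in the Y set. Hbb-bs and Alas2 parted the sets, while the erythroid factor Klf1 read 3.91 to 4.30 in the Xist set, against 3.81 to 4.13 in the Y set. Handling stress genes (14 of 14), which include early response genes induced as cells are processed, read 7.69 to 8.16 in the Xist set, against 8.53 to 9.91 in the Y set, and 5 of the 14 lay lower without overlap, beside 6.59% of all genes. Ly6C-low monocyte markers (10 of 10) read 6.30 to 6.63 in the Xist set, against 7.47 to 8.38 in the Y set, and 7 lay lower without overlap, beside 6.59% of all genes. Nr4a1, 1 of the 7, was also on the handling stress list. Spn ran the other way on average, at 9.08 in the Xist set and 8.62 in the Y set. Platelet markers (6 of 6) read 3.83 to 4.06 in the Xist set, against 4.76 to 6.15 in the Y set, and 3 lay lower without overlap, beside 6.59% of all genes. Sex, preparation, cell stage and the share of other cells cannot be told apart between the sets. All 4 mixes and 2 other arrays make up the Y set, and the part of these lists in the factors' values was not tested. In such bulk samples fewer cells of a type and less RNA per cell cannot be told apart either.

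Genes that these factors are known to regulate were read from lists of targets. Of 13 measured C/EBP granule genes, 9 lay higher in the Xist set without overlap and 1 lower, where 7.45% of all genes lay higher and 6.59% lower. All of these are counted on other lists too. Elane, Mpo, Prtn3 and Ctsg were also progenitor markers, and Ltf, Camp, Ngp, S100a8 and S100a9 were also neutrophil markers. The lower gene, Csf3r, was also a neutrophil marker and a PU.1 target. The primary granule gene Mpo, for myeloperoxidase, read 10.9 to 11.5 in the Xist set, against 4.74 to 5.15 in the Y set, and Elane, for neutrophil elastase, 10.3 to 10.8 in the Xist set, against 3.81 to 5.56 in the Y set. Of 8 measured PU.1 targets 5 lay lower in the Xist set without overlap and 0 higher, among them Csf1r, the receptor for the monocyte growth factor CSF1, at 9.73 to 10.1 in the Xist set, against 10.9 to 11.1 in the Y set. Csf1r and Itgam of this list were also Ly6C-high monocyte markers. Of 7 genes linked to IRF8 and KLF4, 4 lay lower and 0 higher, although Irf8 and Klf4 themselves were higher on average in the Xist set. Among the 7, Cx3cr1 was also a Ly6C-low monocyte marker. H2-Aa, an MHC class II chain, read 6.30 to 7.17 in the Xist set, against 8.66 to 10.6 in the Y set.

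Of 8 macrophage genes listed with MAF, 3 lay lower in the Xist set without overlap, beside 6.59% of all genes. Mrc1, the mannose receptor gene, differed by -1.48 between the sets and C1qb, a complement chain, by -1.48, while Cd163 differed by 0.17 and the monocyte gene F13a1 by 0.16. C1qc, also lower without overlap, was dim, at 3.87 in the Xist set and 4.50 in the Y set. C1qa averaged 4.90 in the Xist set and 4.87 in the Y set. Of all genes 14.0% parted the sets in either direction, and of 4 measured KLF2 targets 0 did. Of 6 genes that GFI1 represses 1 did, Egr1, which was also on the handling stress list and read 4.58 to 5.13 in the Xist set, against 7.21 to 10.97 in the Y set.

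Between genotypes, 0 genes on these target lists passed in limma, with or without the block. The count at an unadjusted p under 0.05 was 0 without the block and 1 with it for PU.1 targets (Fcgr1, 0.35, SE 0.129 with the block) and for C/EBP granule genes (S100a9, 0.80, SE 0.361), and 0 in both fits for the IRF8 and KLF4, KLF2, GFI1 and MAF lists. The median genotype difference was 0.39 for the C/EBP granule genes, where TRIM33 arrays of the Y set read 5.70 to 7.12 as a list mean and its WT arrays 5.92 to 6.02. TRIM33 replicate 2 gave the upper end. The other medians lay between -0.14 for the GFI1 list and 0.06 for the PU.1 list.

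**Figure D4:**
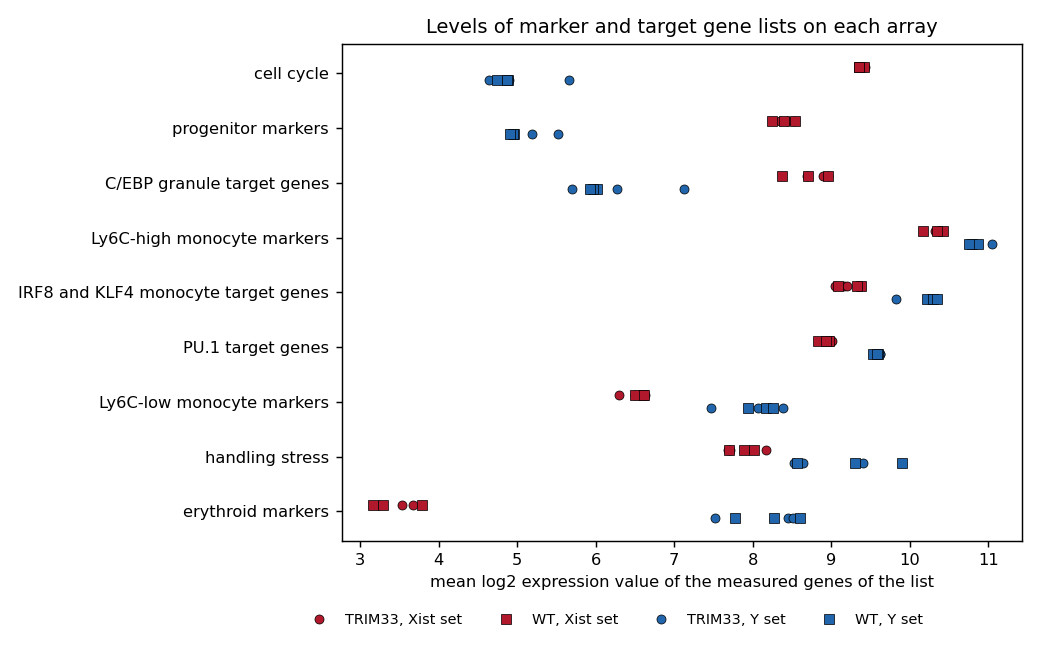
Mean log2 expression value (horizontal axis) of the measured genes of 9 lists on each array (cell cycle, progenitor, C/EBP granule, Ly6C-high, IRF8 and KLF4, PU.1, Ly6C-low, handling stress and erythroid), circles for TRIM33 and squares for WT, red for the Xist set and blue for the Y set. The means of the first 3 lie higher in the Xist set and those of the other 6 lower, each without overlap of the arrays. Some genes stand on several of these lists.

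Relatives of the factors did not all follow them. Of 8 measured interferon regulatory factors, 6 lay lower in the Xist set without overlap, beside 6.59% of all genes, whereas Irf8 was higher on average. Irf4, which steers monocytes toward antigen presentation, read 4.65 to 5.78 in the Xist set, against 7.09 to 8.30 in the Y set, and Irf7, the interferon amplifier, 8.24 to 8.82 in the Xist set, against 9.52 to 10.3 in the Y set. Among 17 Krüppel-like factors 5 lay lower (Klf3, Klf6, Klf7, Klf10 and Klf13) and 1 higher, Klf8, beside 6.59% and 7.45% of all genes. Klf3 differed by -1.43 between the sets, near the -1.24 of Klf2, and Klf8 by 1.26. In the MAF family the small partner Mafg lay higher without overlap, by 0.52, where Maf itself lay lower. Spic, a PU.1 relative of red pulp macrophages, differed by -1.70 and Spib by -1.02, both without overlap and in the direction of Spi1. The C/EBP partner Cebpg differed by -0.0015, with 8.48 ± 0.158 in the Xist set and 8.48 ± 0.165 in the Y set.

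Of 38 other measured myeloid fate regulators, 13 lay lower and 3 higher in the Xist set without overlap, beside 6.59% and 7.45% of all genes. The higher ones were Myb and Myc, both factors of dividing progenitors, and Cbfb, the partner of RUNX proteins. Myb read 7.79 to 8.10 in the Xist set, against 3.52 to 4.12 in the Y set. Nr4a1, needed for Ly6C-low monocytes and also on the handling stress list, read 8.18 to 9.33 in the Xist set, against 9.86 to 11.7 in the Y set, and Batf3, a dendritic cell factor, 5.56 to 6.19 in the Xist set, against 7.04 to 8.20 in the Y set. Between genotypes 0 of the 38 passed in limma and 0 had an unadjusted p under 0.05, with or without the block. The smallest p belonged to Gata1 (0.23, SE 0.112) and to Hhex (-0.18, SE 0.0900). In the factor families, 0 passed, and with the block Irf7 (0.34, SE 0.113) and Klf10 (-0.29, SE 0.114) had an unadjusted p under 0.05, which is 1 of 8 and 1 of 17 genes beside 5.28% of all genes.

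Within the sets the factors were also compared pair by pair from array to array. The level of the handling stress list, which also varied from array to array, was not taken out, and its part was not tested. All 45 pairs were examined in each set with both genotypes together, which gave 90 correlations over 6 arrays, of which 7 had an unadjusted exact permutation p under 0.05 and 0 an adjusted one. Irf8 and Klf4 ran together in both sets, with Pearson's r of 0.881 in the Xist set (Spearman's rho 0.943, exact permutation p = 0.0236 and 0.0167, adjusted p = 0.425 and 0.600, r = 0.973 without the 2 arrays farthest from the median of Irf8). In the Y set the correlation was 0.915 (rho 0.886, exact permutation p = 0.0111 and 0.0333, adjusted p = 0.333 and 0.600, and r = 0.797 without those 2). Klf4 and Klf2 had r = 0.964 and rho = 1 in the Y set (exact permutation p = 0.00139 and 0.00278, adjusted p = 0.125 and 0.250, r = 0.877 without the 2 farthest arrays) and r = 0.519 in the Xist set (rho 0.600, exact permutation p = 0.289 and 0.242, adjusted p = 0.743 and 0.968, r = 0.131 without the 2 farthest arrays). Cebpe ran against Klf4, at -0.522 in the Xist set and -0.752 in the Y set (exact permutation p = 0.276 and 0.0931, adjusted p = 0.743 and 0.559; rho -0.486 and -0.543, p = 0.356 and 0.297, adjusted p = 0.968 in both; r = -0.793 and -0.809 without the 2 farthest arrays). With the genotype means of each set taken out, a step added after the data were seen, its r was -0.129 in the Xist set and -0.733 in the Y set. The change of r, over 6 arrays a set, was not tested. The same step gave 0.906 in the Xist set and 0.914 in the Y set for Irf8 and Klf4, and 0.480 in the Xist set and 0.967 in the Y set for Klf4 and Klf2. With both genotypes together 6 pairs had r above 0.5 in both sets, and 5 with the genotype means taken out. Below -0.5 in both sets lay 1 pair, Cebpe and Klf4, with both genotypes together. With the genotype means taken out there were 3 others: Cebpa with Cebpd, Cebpd with Klf2, and Gfi1 with Maf. The share of all gene pairs at such r was not computed, so these counts have no background beside them and are not read as a trait of the factors.

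**Figure D5:**
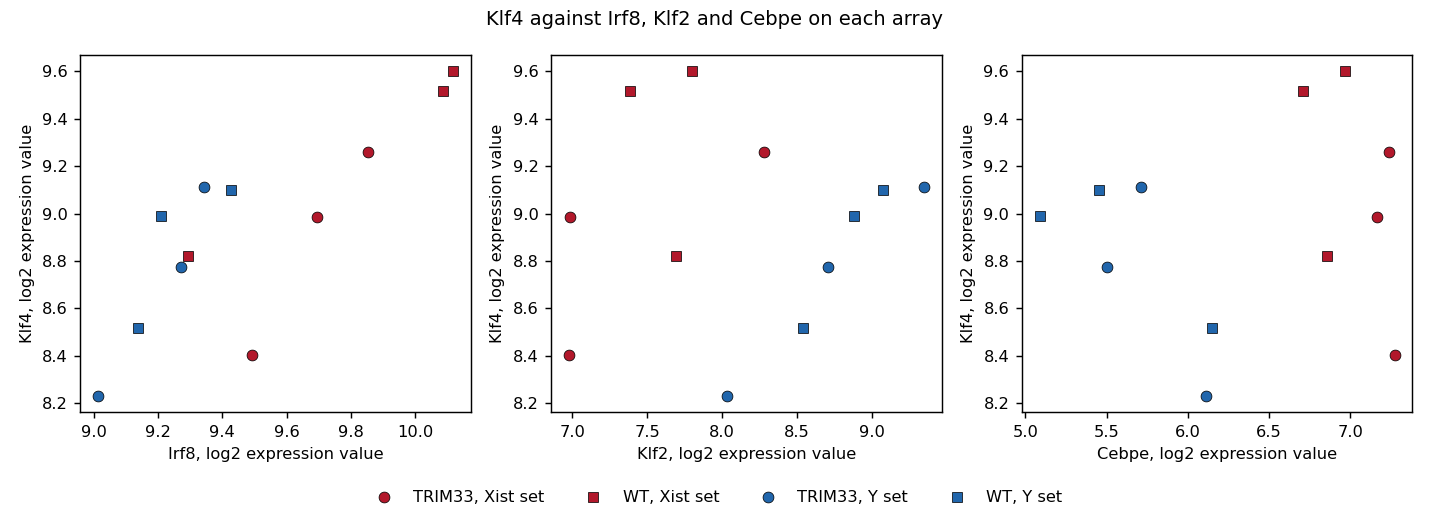
Log2 expression value of Klf4 (vertical axes) against Irf8, Klf2 and Cebpe (horizontal axes) on each array, circles for TRIM33 and squares for WT, red for the Xist set and blue for the Y set. Klf4 rises with Irf8 in both colours (r = 0.881 and 0.915), and with Klf2 most tightly in blue (r = 0.964).

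The genes whose pattern lay closest to each factor were ranked by the lower of the correlations within the sets, over 6 arrays each and 23269 genes. They are given as a description with no p, since many genes reach high values over so few arrays. For Klf4 they were Rara, the retinoic acid receptor alpha gene (0.915 in the Xist set and 0.949 in the Y set), and Fbrs (0.974 and 0.914). For Irf8 they were Fiz1 (0.940 and 0.940) and Maml1, a Notch coactivator gene (0.930 and 0.939). For Cebpa they were Ncf1, an NADPH oxidase subunit gene (0.907 and 0.953), and Dgkz (0.881 and 0.913), for Spi1 Zfp385a (0.954 and 0.933) and Jhy, and for Cebpe Zdhhc6 (0.871 and 0.877) and Tgds. For Cebpb they were Cnr1 (0.920 and 0.967) and Olfr492 (0.927 and 0.874), and for Cebpd Wnt8b (0.920 and 0.990) and Zfp189 (0.893 and 0.945). Klf2 had B3galt5 (0.872 and 0.937) and 1700029B22Rik (0.858 and 0.882). Gfi1 had Gad1os (0.952 and 0.947) and Mir877 (0.932 and 0.876), and Maf had Ceacam18 (0.897 and 0.898) and S100g (0.969 and 0.888).

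Promoters are shown for Klf2 and Cebpa, both lower in the Xist set, and for Irf8, higher there. The windows run from 250 bases before to 50 after the annotated start and come from RefSeq on GRCm38.p6, in which 6 of the factors matched by symbol (Cebpb, Klf4, Gfi1, Cebpa, Klf2 and Irf8). Capitals mark TATAA, the core of the TATA box, and GGGCGG, the GC box, each on either strand. These capitals do not overlap each other.
Klf2, chr8:72318812-72319111, plus strand: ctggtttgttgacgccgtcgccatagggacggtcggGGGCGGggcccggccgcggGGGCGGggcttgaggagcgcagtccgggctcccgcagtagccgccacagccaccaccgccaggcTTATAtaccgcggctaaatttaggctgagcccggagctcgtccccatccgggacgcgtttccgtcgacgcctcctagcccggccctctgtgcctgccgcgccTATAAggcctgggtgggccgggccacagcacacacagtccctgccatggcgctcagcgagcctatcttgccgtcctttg
Cebpa, chr7:35119043-35119342, plus strand: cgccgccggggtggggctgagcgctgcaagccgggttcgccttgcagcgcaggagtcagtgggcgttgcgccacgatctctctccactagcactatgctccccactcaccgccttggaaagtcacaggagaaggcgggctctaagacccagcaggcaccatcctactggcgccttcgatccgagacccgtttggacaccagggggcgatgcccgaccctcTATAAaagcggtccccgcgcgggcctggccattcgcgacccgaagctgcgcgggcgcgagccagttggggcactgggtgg
Irf8, chr8:120736108-120736407, plus strand: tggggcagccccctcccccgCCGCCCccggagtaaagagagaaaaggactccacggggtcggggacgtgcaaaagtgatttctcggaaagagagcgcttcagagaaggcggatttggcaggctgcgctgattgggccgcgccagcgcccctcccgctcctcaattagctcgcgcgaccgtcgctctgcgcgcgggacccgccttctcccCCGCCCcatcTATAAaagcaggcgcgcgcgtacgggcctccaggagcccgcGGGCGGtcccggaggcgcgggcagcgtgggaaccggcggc

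All 3 windows hold TATAA close before the start, its leftmost base at -29 in Klf2, -30 in Cebpa and -31 in Irf8, and Klf2 holds another at -131. The window of Klf2 has 2 GC boxes, that of Irf8 3 and that of Cebpa 0. The 6 matched factors have 8 windows, since Gfi1 and Irf8 have 2 each. TATAA was found in 5 of the 8, where 24.9% of all 32851 promoter windows hold it, though in Cebpb it lies after the start, and GGGCGG in 4 of 8, where 35.7% hold it. CACCC, the letters that KLF proteins bind, was found in 4 of 8 (57.5% of all windows), TTGCNNAA, a C/EBP motif, in 1, of Gfi1 (10.8%), GAGGAA, the core of PU.1 motifs, in 0 (28.3%), and CCAAT in 1, of Irf8 (37.4%), all on both strands. A match in these letters is not a measured binding site.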

How the data were processed

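RNA of sorted blood monocytes was measured on 12 arrays; per the labels' protocols, 900 pg of total RNA was turned into biotinylated cDNA with a NuGEN kit. The deposited log2 values, 1 per gene-level feature, were made by the authors with RMA and Partek, per the submitters' processing notes; the sources used here give no chip definition, version or genome build. RMA equalises arrays, so a shift shared by most genes is hidden, and dim differences are compressed. The labels' treatment text describes a T cell sort; the source names and design give monocytes and were followed.

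Of 24479 features, 23281 carried 1 symbol, 0 several and 1198 none; 23279 genes were kept, by the higher mean where a symbol had 2 features. Symbols were checked by Entrez number against RefSeq (GRCm38.p6), which matched 23156 features. Groups follow the genotype labels. Genotype was tested in limma 3.58.1 (lmFit, eBayes; R 4.3.3) on all genes, adjusted by Benjamini-Hochberg at 0.05, and each factor by exact two-sided permutation, over 924 assignments and over 400 within the array sets (smallest p 0.00216 and 0.005). The fit was tested on simulated data. Factors, lists and tests were chosen with earlier results of these data known. Named genes are the factors, Trim33, the 2 of each list with the smallest p or the largest difference between sets, and the 2 most like each factor; other list members were named after their values were seen. Some genes on the lists are not analysed here. Alternatives covered normalization, dim features, variance models, array weights, preparation, the mix number, the array set and each array left out. Figures used matplotlib 3.10.9 in Python 3.11.15.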

Additional observations from a re-analysis of the deposited data

Results flagged for a closer look

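Of the 22 groups of 6 arrays examined for Trim33 and the 10 factors, 0 held an array that stood apart by Dixon's 95% criterion for 6 values (0.625), where chance would flag about 1 group in 20. Each group holds 3 arrays of either set, so the criterion says nothing of an array that stands apart within its own set, such as TRIM33 replicate 6 for Klf2 (8.28, beside 6.98 and 6.98). The interaction of genotype and array set passed for 0 of the 10 factors.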

How the results depend on the processing

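Under every alternative run, each array left out included, 0 of the 10 factors passed, and their median difference stayed below 0, at -0.20 to -0.05. The count over all genes was 5 in the fit of genotype alone, 9 with the set as block, 8 in the Y set alone, 3 in the Xist set alone, 3 with a linear model without moderation and 0 in arrays not titled as mixes; with 1 array left out it was 5 to 9 without the block and 9 to 15 with it, both upper ends without TRIM33 replicate 4, and the next highest with the block, 12, without TRIM33 replicate 3. The count for the interaction was 1, 0 among features with a mean above the median, and 0 to 2 with 1 array left out. Differences that missed the threshold turned sign in the Xist set alone for Cebpa (0.049), Cebpd (0.17) and Gfi1 (0.018), and in arrays not titled as mixes for Cebpd (0.094). With 1 array left out the range crossed 0 for Cebpd (-0.079 to 0.039), Gfi1 (-0.081 to 0.028), Irf8 (-0.18 to 0.014), Klf2 (-0.43 to 0.042) and Maf (-0.46 to 0.18). With the block it turned for Cebpd without TRIM33 replicates 1 and 3 (0.028 and 0.0050) and WT replicates 5 and 6 (0.023 and 0.020), and for Gfi1 without TRIM33 replicate 3 (0.033) and WT replicate 4 (0.019). For the interaction it crossed 0 for Cebpb (-0.15 to 0.21), Cebpe (-0.13 to 0.40), Gfi1 (-0.036 to 0.20), Irf8 (-0.37 to 0.039), Klf2 (-0.51 to 0.24) and Maf (-0.31 to 0.36). The causes were not tested. All differences between the sets kept their direction under both other normalizations and with each array left out. The mixes share a number across genotypes, and nothing says that it pairs them: deviations of the mixes numbered 1 correlated at 0.118 over genes, and with the mix number as a replicate block 6 genes and 0 factors passed. Signal over background was not used here, and the mean of Gfi1 lay below the array medians.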
